A study of Mus musculus with 4 samples.

Results

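The genes described here are 7 members of the family of regulators of G protein signaling, Rgs2, Rgs4, Rgs7, Rgs8, Rgs10, Rgs14 and Rgs16. They were taken by symbol from a deposited spatial table of 19465 genes, and all 7 were found in it. The table came from Visium CytAssist, an assay in which gene probes hybridised to fixed tissue are captured on a grid of barcoded spots, so that each spot reads a small region that can hold several cells. Brains of 2 wild type and 2 Celsr3 heterozygous mice, which received no treatment, were fixed in formalin, embedded in paraffin and cut coronally at the level of the striatum. Celsr3 is a cell surface receptor with cadherin repeats. The labels give neither the age nor the strain of the mice. The spot names end in 1 of 4 suffixes, which split the spots into 4 barcode sets, and no suffix matches a mouse or a genotype in the labels. Genotypes were therefore not compared, no test was made, and each value is given for its own set.

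RGS proteins speed the hydrolysis of GTP by the alpha subunits of heterotrimeric G proteins, and so shorten the signal of the receptors that activate them. Rgs2, Rgs4, Rgs8 and Rgs16 belong to the R4 subfamily of small proteins, and Rgs2 is known for its preference for Gq. Rgs7 belongs to the R7 subfamily, whose members work in complexes with the beta subunit Gnb5 and the anchors Rgs7bp or Gpr158, as does the striatal protein Rgs9. Rgs10 and Rgs14 belong to the R12 subfamily. Rgs10 is known from microglia and Rgs14 from hippocampal pyramidal neurons. In the striatum, RGS proteins limit the signals of dopamine, adenosine and muscarinic receptors.

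Among the members, 5 of 7 lie on mouse chromosome 1 (GRCm38.p6). Rgs8 (chr1:153652959-153697669) and Rgs16 (chr1:153740353-153745468) are neighbours, 42683 bases apart with 0 other protein-coding genes between them. Their patterns over the sections differed in the striatum, where Rgs8 was high and Rgs16 low. For that reason their upstream sequences are shown here beside those of Rgs2 and Rgs4, the other members that were high in the striatum. The sequences end at the base before the gene in the RefSeq table of that build and are read 5′ to 3′ on the strand of the gene. They are chr1:144004150-144004399 (minus strand) for Rgs2, chr1:169747643-169747892 (minus strand) for Rgs4, chr1:153652787-153652958 (plus strand) for Rgs8 and chr1:153740103-153740352 (plus strand) for Rgs16. Capitals mark matches, on either strand, to the core of the cyclic AMP response element (TGACG), the TATA box (TATAAA) and the GC box (GGGCGG).
Rgs2: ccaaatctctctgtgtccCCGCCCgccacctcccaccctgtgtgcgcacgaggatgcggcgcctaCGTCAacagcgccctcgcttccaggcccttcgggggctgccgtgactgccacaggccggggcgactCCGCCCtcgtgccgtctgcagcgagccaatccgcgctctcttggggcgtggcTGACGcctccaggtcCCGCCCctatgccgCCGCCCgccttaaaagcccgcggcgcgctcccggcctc
Rgs4: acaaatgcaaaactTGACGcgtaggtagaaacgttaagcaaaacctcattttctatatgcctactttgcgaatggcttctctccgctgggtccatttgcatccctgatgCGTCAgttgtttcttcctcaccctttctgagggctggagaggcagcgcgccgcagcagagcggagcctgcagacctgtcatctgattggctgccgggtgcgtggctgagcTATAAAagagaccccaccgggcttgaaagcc
Rgs8: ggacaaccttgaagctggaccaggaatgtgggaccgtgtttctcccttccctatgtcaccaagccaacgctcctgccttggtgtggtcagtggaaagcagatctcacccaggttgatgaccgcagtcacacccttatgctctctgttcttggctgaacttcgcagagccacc
Rgs16: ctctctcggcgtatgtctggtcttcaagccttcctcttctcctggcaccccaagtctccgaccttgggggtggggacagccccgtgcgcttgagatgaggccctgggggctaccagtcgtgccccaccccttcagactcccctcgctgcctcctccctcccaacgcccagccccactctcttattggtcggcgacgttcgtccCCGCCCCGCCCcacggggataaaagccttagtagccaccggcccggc

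The Rgs2 sequence held 2 such cores and 4 GC boxes, and the Rgs4 sequence held 2 cores and a TATA box that began 31 bases before the start. The Rgs16 sequence held 2 overlapping GC boxes, and the 172 bases of Rgs8 held no match to these letters. Over the 250 bases before the start of 32851 RefSeq promoters, 17.8% held the core, 12.4% the TATA box and 32.7% the GC box. The full element TGACGTCA, which contains the core, was in 1.55% of promoters and in none of the 4 sequences, and the Egr1 site GCGTGGGCG was in 0.536% and in none of them. These matches are letters in a window, and no binding was measured.

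Sets 1 to 4 held 3055, 2808, 3444 and 3294 spots after 1 spot with fewer than 500 counts was left out, with a median of 52481, 38182, 44966 and 26444 counts per spot. The sets shared barcodes, with 1613 of 4744 barcodes found in all 4. Spots were sorted into 18 areas by fixed marker genes, with every Rgs gene left out of the sorting, and 200 spots fell in no area. All 10 striatal markers were at least 2-fold higher in the striatum-marker spots than elsewhere. The share was 3 of 5 in layer 2/3, 4 of 7 in layer 5 and 3 of 5 in layer 6. It was 3 of 6 for the hippocampus list, 4 of 5 for the ventral striatum list and 5 of 6 for the lateral septum list. In the remaining areas all markers reached 2-fold. Since the spots were sorted by these same genes, such shares are no independent check of an area. Area names refer to these markers, not to drawn borders, and 3 marker groups are called by genes among their 10 leading ones: Pdyn and Crym (list for ventral striatum), Lbhd2 and Prkcd (list for lateral septum), and C1ql2 and Cabp7 (list for hippocampus). The first leading gene of the Pdyn and Crym group was Pmch, a neuropeptide gene of the lateral hypothalamus, and the Lbhd2 and Prkcd group had 0 genes of its own list among the 10. Prkcd is on the list for the thalamus. The 8 markers of that list summed to 434 and 505 CPM in the Lbhd2 and Prkcd group in sets 2 and 3, beside 124 and 153 CPM over the whole section. Thalamus-marker spots reached 30 only in sets 1 (147 spots) and 4 (284 spots), so the sections did not cover the same tissue.

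Levels are in CPM, a gene's counts per 1000000 counts of all genes, summed over the spots of an area in 1 set. Fewer expressing cells and less RNA per cell cannot be told apart in them, and since probes differ between genes, no gene's level is set against another's. A member was called higher or lower in an area where its CPM + 1 differed at least 2-fold from that of all other spots in every set with at least 30 spots of the area, with at least 3 such sets. By this rule 6 of the 7 members were called in at least 1 of 14 areas, against 21.2% of the 10094 genes with a median of at least 10 CPM. The members were chosen as regional genes, so this count and the spans below are descriptions and no test of how regional they are. Higher calls went to Rgs2, Rgs4, Rgs8 and Rgs14 (14.2% of all genes), and lower calls to Rgs4, Rgs7, Rgs8, Rgs14 and Rgs16 (14.7% of all genes). Rgs10 had no call.

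The distance between the highest and the lowest of the 14 areas was at least 2-fold in every set for all 7 members, as it was for 43.1% of genes. These 14 areas leave out the thalamus, where Rgs16 was highest in sets 1 and 4. Over them, Rgs14 had the widest median span of the members at 16.6-fold, then Rgs4 at 10.1-fold and Rgs16 at 9.80-fold. The spans of Rgs8, Rgs2, Rgs10 and Rgs7 were between 4.72-fold and 6.70-fold. On the log2 scale these medians lay between 2.24 and 4.06, beside 1.03 for the median gene. The lowest Rgs14 levels of sets 1 and 3, in the ventricle lining, rested on 7 and 5 counts. With the areas of fewer sets included, the CPM of Rgs16 spanned 55.4-fold in set 1 and 46.6-fold in set 4. Rgs14 spanned 28.4- and 18.9-fold in these sets. In sets 2 and 3, Rgs14 spanned more, at 21.5- and 14.2-fold against 11.1- and 13.3-fold for Rgs16.

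**Figure D1:**
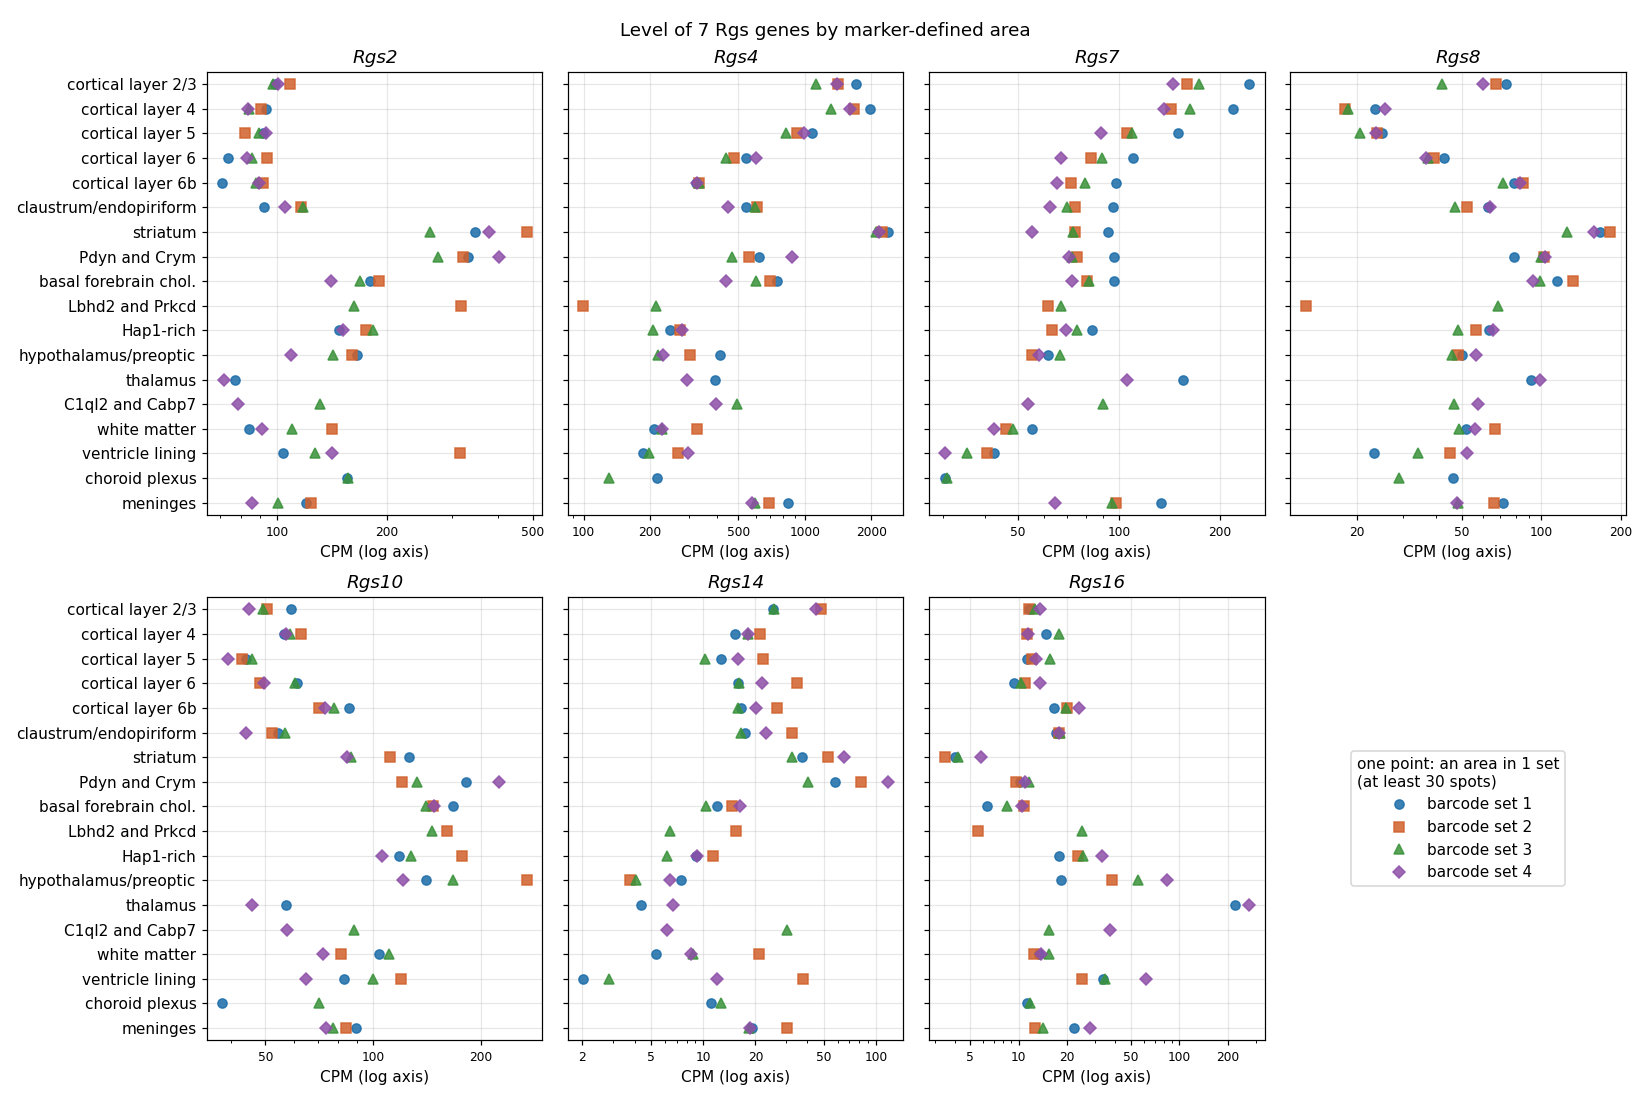
Level of each member in CPM (log axis) in 18 marker-defined areas, with 1 point for each barcode set that has at least 30 spots of the area. Rgs4 and Rgs8 have their highest points in the striatum, Rgs7 in cortical layer 2/3, and Rgs16 in the thalamus, where only sets 1 and 4 have points.

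Of the R4 members, Rgs4, Rgs2 and Rgs8 were high in the striatum-marker spots and Rgs16 was low there. The striatal level of Rgs4 was 2386, 2237, 2103 and 2166 CPM in sets 1 to 4, the narrowest spread over sets of any of these genes. It was 3.68, 2.90, 3.51 and 3.41 times the level of all other spots, and the striatum held 42.3%, 43.3%, 45.8% and 29.95% of all Rgs4 counts with 16.6%, 20.8%, 19.4% and 11.1% of all counts. Every striatum-marker spot had an Rgs4 count, with a median between 50 and 105.5 counts per spot.

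Rgs2 had 346, 482, 262 and 380 CPM in the striatum, which was 3.17, 3.49, 2.21 and 3.58 times the other spots. Set 2 was high and set 3 low, and the lowest of the 4 values was still above the Rgs2 level of every cortical layer, 71.0 to 108.3 CPM over layers and sets. The Pdyn- and Crym-led spots had Rgs2 levels of 333, 322, 275 and 404 CPM, which overlapped the striatal ones, so that the order of these 2 areas differed between sets. Rgs8 had 166.9, 182.3, 124.7 and 157.5 CPM in the striatum, 2.84, 3.19, 2.80 and 2.56 times the other spots, and its next area, the basal forebrain cholinergic zone (the spots with Chat and Slc5a7, genes of acetylcholine neurons), had 93.3 to 131.4 CPM. The striatum was the higher of the 2 in all 4 sets although their ranges overlapped. The cholinergic zone spots also held striatal markers, the 10 summing to 1688 to 3345 CPM beside 12099 to 15052 CPM in the striatum. The 8 white matter markers summed to 6664 to 15057 CPM in the zone. The part of this mixture in its Rgs8 level was not tested.

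Rgs16 was lowest in the striatum in all 4 sets, at 4.00 (95% Poisson interval 3.30 to 4.79), 3.46 (2.74 to 4.31), 4.18 (3.50 to 4.95) and 5.84 (4.44 to 7.53) CPM. These intervals, like all those given here, cover counting error only. The levels were 0.125, 0.251, 0.232 and 0.105 times those of the other spots, and the shares of striatum-marker spots with an Rgs16 count were 17.9%, 11.1%, 15.2% and 13.5%. At 2.88% of genes called higher and 6.57% called lower in the striatum, the members gave 3 calls higher and 1 lower. Rgs14 reached 2-fold in 3 sets but was 1.77 times the other spots in set 2, and is called without that set.

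Against all cortical layers, the striatal levels were 4.02, 4.98, 2.94 and 4.11 times as high for Rgs2, 3.37, 3.68, 3.50 and 3.31 times for Rgs8, and 2.14, 2.16, 2.46 and 2.04 times for Rgs4. Rgs16 was at 0.326, 0.284, 0.284 and 0.407 times the cortical level. Of all genes, 3.40% were called higher and 6.14% lower in this comparison. The Rgs4 call against cortex was near the threshold, and the Rgs16 call rested on low striatal levels, 3.46 to 5.84 CPM. With spots grouped by clusters of variable genes, both calls were lost, the median log2 ratio of Rgs4 falling from 1.10 to 0.95. The Rgs16 call was also lost with a pseudocount of 5 CPM, which is close to its striatal level. Its median log2 ratio went from -1.49 to -0.98. Rgs10 (1.53 to 2.19 times), Rgs14 (1.46 to 2.24 times) and Rgs7 (0.506 to 0.605 times) were not called.

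The other genes of the family and its partners were read from lists of genes chosen by function. Of 14 other RGS genes 9 had a median of at least 10 CPM, of which 2 were higher and 1 lower in striatum than in cortex, with a median log2 ratio over the list of -0.14 beside 0.00 over all genes. Rgs9, the R7 protein of striatal neurons, was 45.3, 18.5, 40.2 and 40.2 times as high in the striatum. Rgs20, of the RZ subfamily, which acts on Gz, was 2.42 to 2.78 times as high, and Rgs6, an R7 protein like Rgs7, was at 0.125 to 0.225 times the cortical level. Among the 5 R7 partners, 3 passed 10 CPM and 2 were called higher, Gnb5 at 2.42 to 2.74 times and Rgs7bp at 2.18 to 2.28 times, while Gpr158 was 1.72 to 1.87 times as high, and the list's median log2 ratio was 1.16.

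The G alpha subunits gave 1 gene higher and 2 lower of 11 that passed, with a median log2 ratio of 0.04. Gnal, which couples dopamine and adenosine receptors to adenylyl cyclase in the striatum, was 6.49 to 7.76 times the cortical level. Gnas, the stimulatory subunit used elsewhere, was at 0.285 to 0.317 times and Gnai1, an inhibitory subunit, at 0.353 to 0.425 times. Outside this comparison, Rgs12 was 4.32 to 5.43 times as high in the claustrum and endopiriform spots as in other spots (0.495% of genes higher), Rgs7bp was at 0.170 to 0.335 times in hypothalamus-marker spots, and white matter had 4.54 to 5.87 times the cortical Gna12, 2.55 to 3.03 times the cortical Rgs3 (6.05% of genes higher) and 0.262 to 0.386 times the cortical Rgs11.

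**Figure D2:**
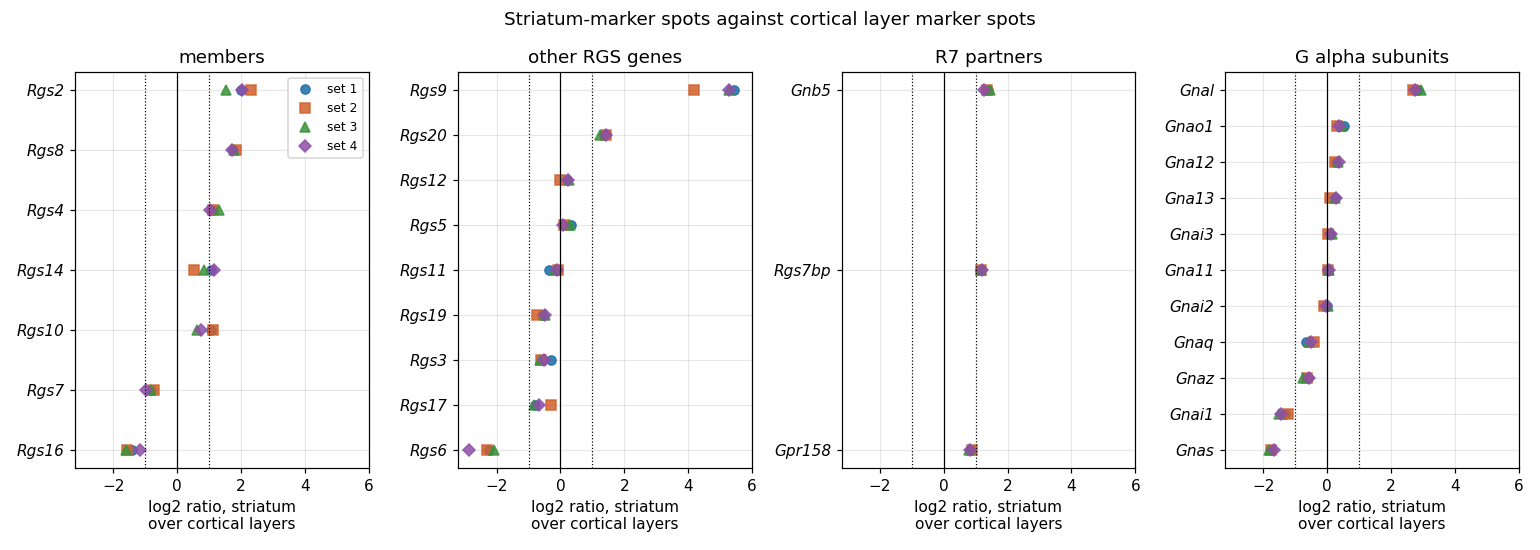
log2 ratio of CPM + 1 in striatum-marker spots over cortical layer spots for the 7 members and for the genes of 3 lists with a median of at least 10 CPM, 1 point per barcode set, with dotted lines at 2-fold. Rgs2, Rgs8 and Rgs4 lie above the upper line in all 4 sets and Rgs16 below the lower one, and Rgs9 lies farthest to the right.

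Within the cortex the members took different layers as their highest. The highest layer lay at least 2-fold above the lowest in every set for Rgs4, Rgs7 and Rgs8, as for 9.29% of genes. The layer 6b spots also held markers of neighbouring tissue. The 8 white matter markers summed to 10169 to 13702 CPM there and to 800 to 6255 CPM in the other layers. The 10 striatal markers summed to 1037 to 1707 CPM there and to 312 to 1099 CPM in the other layers. The 7 hypothalamus markers summed to 27.6 to 124.0 CPM in layer 6b and to 3.76 to 13.96 CPM in the other layers. The 6 markers of the Hap1-rich list summed to 404 to 744 CPM in layer 6b and to 132 to 404 CPM in the other layers. The part of this mixture in the layer 6b levels of the members was not tested. Rgs4 was highest in layer 4 and lowest in layer 6b in all 4 sets. Its layer 4 level was 1968, 1674, 1313 and 1597 CPM and its layer 6b level 321, 334, 332 and 326 CPM, a difference of 3.95- to 6.13-fold with no overlap. Layer 2/3 came next, at 1713, 1420, 1124 and 1404 CPM, below layer 4 in each set but overlapping it over sets. Against all other spots, which hold the striatum, the layer 6b level was 0.331, 0.303, 0.361 and 0.394 times (lower, 0.664% of genes).

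Rgs7 declined from layer 2/3 to layer 6b without an exception in any set. It had 244, 159.6, 173.5 and 144.9 CPM in layer 2/3 and 98.2, 71.9, 79.1 and 65.7 CPM in layer 6b, which is 2.19- to 2.49-fold. Set 1 was high in all 5 layers. Rgs7 was lower in white matter than in cortex, at 0.332 to 0.391 times (5.10% of genes were lower), and at 0.363 to 0.428 times the other spots in the ventricle lining (2.16% of genes).

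Rgs8 followed another course, high in layer 2/3, low in layers 4 and 5 and highest in layer 6b. Layer 4 had 23.4, 18.0, 18.5 and 25.6 CPM, layer 5 24.9, 23.8, 20.6 and 23.6 CPM, and layer 6b 78.7, 85.2, 71.7 and 83.1 CPM, with layer 6 between. The fold from the lowest to layer 6b was 3.36 to 4.72. Rgs8 was called lower in layer 4 (0.211 to 0.344 times the other spots, 3.01% of genes) and layer 5 (0.267 to 0.323 times, 2.43% of genes). The layer 2/3 level was 2.93, 2.83, 2.05 and 2.55 times that of layer 5 (0.812% of genes were called higher), a call that was lost under TMM scaling, RLE scaling and a pseudocount of 5 CPM.

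The remaining members did not reach 2-fold in every set. Rgs14 was highest in layer 2/3 in all 4 sets (25.4, 48.0, 25.5 and 45.1 CPM), 2.00- to 2.83-fold above its lowest layer. Rgs10 was highest in layer 6b (70.9 to 85.8 CPM) and lowest in layer 5 (39.4 to 45.9 CPM) in all 4 sets, and Rgs16 was highest in layer 6b as well (16.6 to 23.7 CPM). Rgs2 differed least, by 1.16- to 1.39-fold. Its highest layer was layer 2/3 in all 4 sets, and its lowest layer was a different one in each set.

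**Figure D3:**
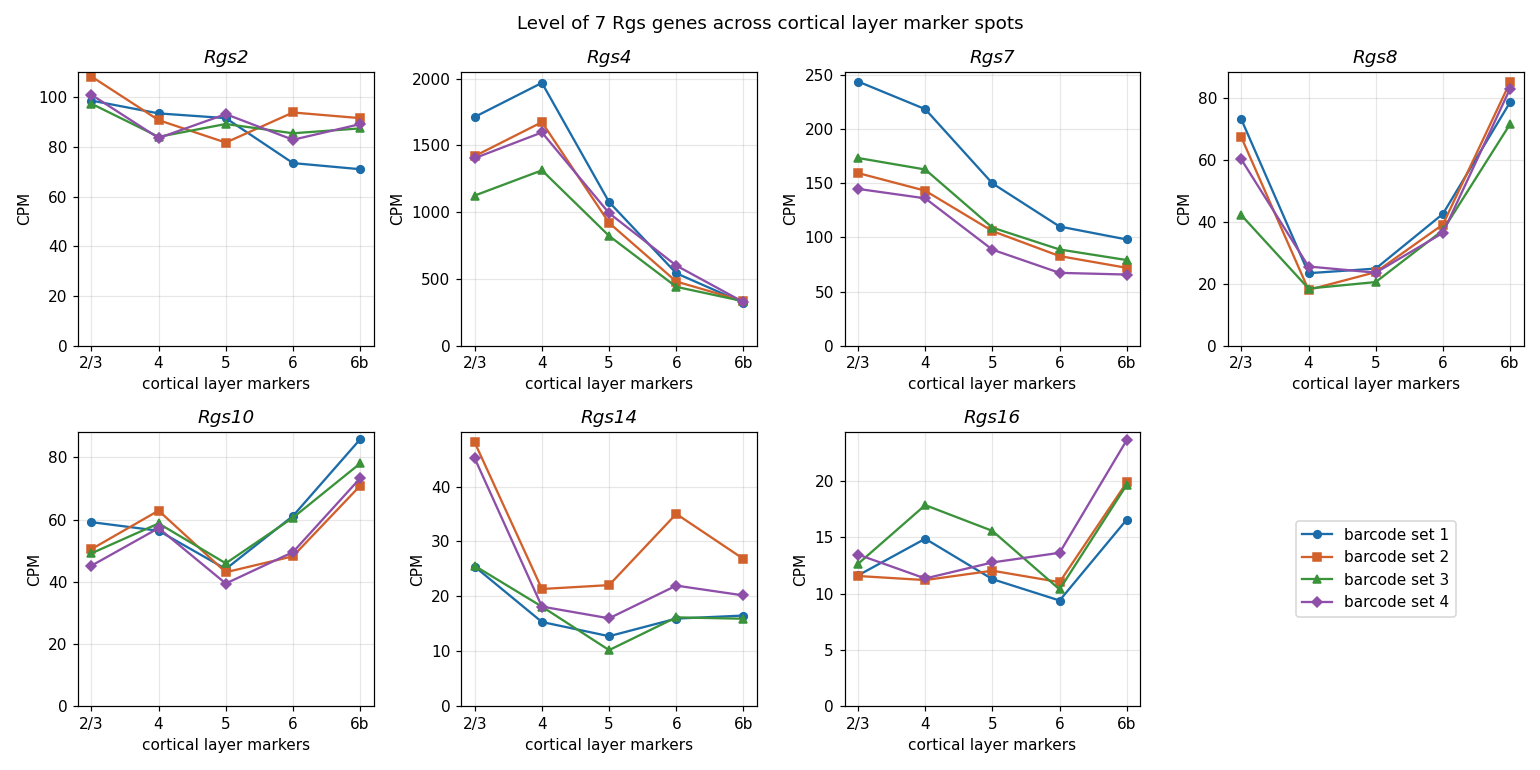
Level of each member in CPM across spots with the markers of cortical layers 2/3, 4, 5, 6 and 6b, with a line for each barcode set and axes from 0. Rgs4 and Rgs7 fall towards layer 6b in all 4 sets, and Rgs8 has its low values in layers 4 and 5 and its high ones in layer 6b.

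Rgs4 was called lower in 4 areas outside striatum and cortex. Its ratio to all other spots was 0.215 to 0.324 in the Hap1-rich spots (2.67% of genes lower) and 0.236 to 0.432 in hypothalamus-marker spots (3.06%). It was 0.200 to 0.297 in white matter (3.36%) and 0.195 to 0.362 in the ventricle lining. The Hap1-rich spots were grouped by a list of 6 genes for the extended amygdala, which was not particular to them. These genes summed to 3594, 4828, 4231 and 3830 CPM there and to 2959, 5182, 4653 and 4337 CPM in hypothalamus-marker spots. In the Pdyn- and Crym-led spots Rgs4 was at 0.224 to 0.405 times the striatal level (0.733% of genes lower). Rgs2 in the same spots was at 0.668 to 1.06 times and Rgs8 at 0.470 to 0.801 times. These spots numbered 31 to 53 per set, and 35 of 168 had a marker score close to that of a second area. The next area by median score was the striatum. The Rgs4 call against the striatum was not kept with only the spots clear of the next area or with the other grouping, which left no such comparison.

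Of the R12 members, Rgs14 was highest in the Pdyn- and Crym-led spots, at 57.5, 81.1, 40.5 and 117.4 CPM, against 37.5, 52.5, 32.4 and 65.2 CPM in the striatum. It was higher there than in all other spots by 3.40-, 2.42-, 2.29- and 4.93-fold (0.287% of genes), a call that was lost under TMM scaling and could not be made with the other grouping or with only the spots clear of the next area. Its median over sets was lowest in hypothalamus-marker spots, at 7.41, 3.77, 4.09 and 6.38 CPM, 0.108 to 0.417 times the other spots. Set 2 had only 6 counts of Rgs14 in them, and this call was lost with a pseudocount of 5 CPM and with only the spots clear of the next area.

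Among the areas with 4 sets, Rgs10 had its highest medians in the Pdyn- and Crym-led spots (182.2, 120.6, 132.4 and 224.6 CPM), the hypothalamus-marker spots (140.7, 270.0, 167.2 and 121.5 CPM) and the cholinergic zone (167.9, 146.9, 140.4 and 148.0 CPM). The summed level of 7 microglia markers was 356 to 407 CPM in the hypothalamus-marker spots and 748 to 1002 CPM in white matter, where Rgs10 had 72.7 to 110.6 CPM. The cholinergic zone had 613 to 766 CPM of these markers, and 0 of the 7 were at 0 in any area. Rgs10 was lower in white matter than in the hypothalamus-marker spots in every set. The part of microglia in these levels was not tested.

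Rgs16 was highest in the thalamus-marker spots, present in sets 1 and 4 only. It had 221 CPM (213 to 230) in set 1 and 272 CPM (262 to 282) in set 4, which were 17.9 (16.9 to 19.0) and 12.1 (11.4 to 12.8) times the other spots, and 18.1 and 19.0 times the cortical layers. With 2 sets the rule makes no call, and 2.05% of genes were at least 2-fold higher in both against the other spots and 3.96% against the cortex. An Rgs16 count was found in 143 of 147 and 272 of 284 thalamus-marker spots, with median depths of 82107 and 34842 counts, so the gene was spread over the thalamic spots and not held by a few. These spots held 58.1% and 60.1% of the section's Rgs16 counts with 7.19% and 11.1% of all counts.

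The other members were not 2-fold higher in the thalamus than in the other spots. Rgs4 was at 0.403 and 0.338 times the other spots, and Rgs14 at 0.239 and 0.243 times, where 4.72% of genes were at least 2-fold lower in both sets. Rgs2, at 0.499 and 0.496 times, did not reach 2-fold in both on the CPM + 1 scale. Against the cortex, where 5.17% were lower, Rgs4 was at 0.353 and 0.276 times and Rgs14 at 0.249 and 0.229 times. Relative to the other spots, Rgs7 was at 1.43 and 1.32 times and Rgs8, the neighbour of Rgs16, at 1.21 and 1.44 times. Relative to the cortex, Rgs7 was at 0.936 and 0.969 times and Rgs8 at 1.85 and 2.08 times.

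Over the whole section, Rgs16 was the only member at least 2-fold apart over the 4 sets, where 10.8% of genes were. Its section level was 27.4, 11.6, 15.4 and 50.2 CPM. Without the thalamus-marker spots it was 12.4, 11.6, 15.4 and 22.5 CPM, a 1.94-fold range, and 0 members were then 2-fold apart (10.5% of genes were). Rgs14 had the next widest range, 17.3, 34.4, 17.9 and 25.01 CPM, and the section levels of Rgs2, Rgs4, Rgs7, Rgs8 and Rgs10 differed by no more than 1.54-fold.

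Within areas, sets differed by 2-fold for Rgs16 in the hypothalamus-marker spots, at 18.3, 38.3, 55.4 and 84.2 CPM (15.8% of genes), and for Rgs10 there. In the ventricle lining (29.0% of genes), Rgs2 had 315 CPM in set 2 against 104 to 141 CPM in the others, with Rgs8 and Rgs16 also 2-fold apart. Rgs14 there was 37.7 CPM in set 2 and 2.03, 2.85 and 12.1 CPM in sets 1, 3 and 4. The summed level of the 10 striatal markers in the same spots was 2761 CPM in set 2 and 289, 647 and 1456 CPM in sets 1, 3 and 4. Other markers also differed between the sets there, the 6 of choroid plexus summing to 15318, 401, 11805 and 648 CPM and the 8 of white matter to 20864, 3020, 3714 and 9532 CPM in sets 1 to 4. The part of these markers in the differences was not tested. Rgs14 was also 2-fold apart in the Pdyn- and Crym-led spots (19.4%) and in layers 5 and 6 (11.5% each), and Rgs7 and Rgs16 in the meninges (19.4%).

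**Figure D4:**
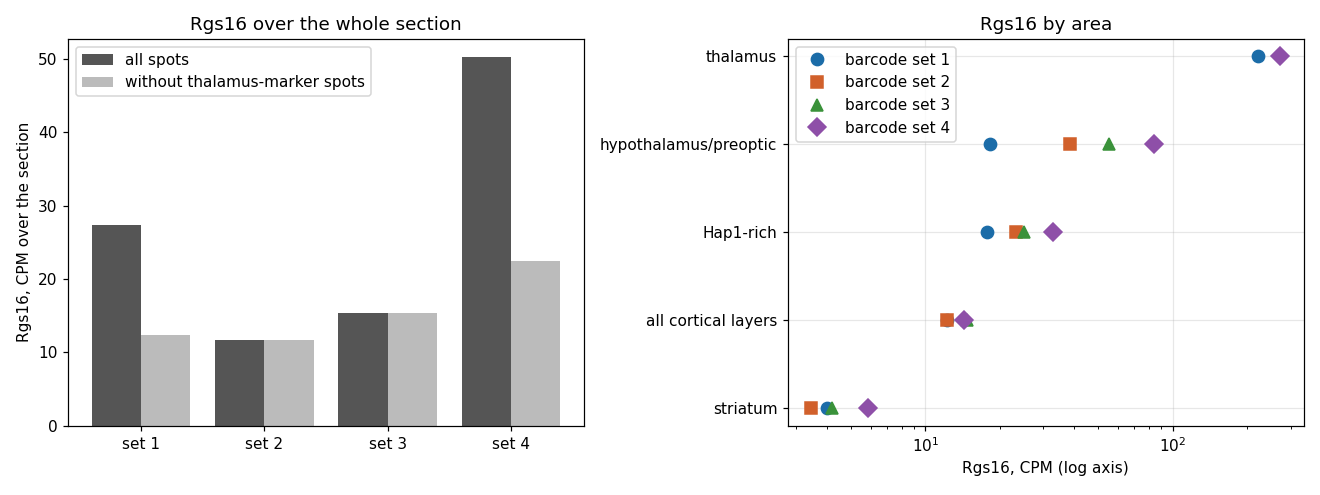
Left, Rgs16 level over all spots of each barcode set (dark bars) and without thalamus-marker spots (light bars), in CPM from 0. Right, Rgs16 level by area on a log axis, 1 point per set, with the thalamus at 221 and 272 CPM and the striatum between 3.46 and 5.84 CPM.

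The genes most like each member were found by Pearson correlation of log2(CPM + 1), centred within each set, over 64 points of area and set, among 10007 genes. The points share libraries and the areas are defined by markers, so these values are descriptions. Rgs2 was most like Tmem158 (0.89), Clip4 and Gpr83, and Rgs4 like Rhobtb2 (0.91), Krt12 and Ubqln4. For Rgs7, the genes given are Cacna1a (0.89), which encodes a calcium channel subunit, and Ttc7b (0.88). Rgs8 was most like Gpr52 (0.81), a receptor gene of the striatum, Arhgap27 and Gnal (0.76). Rgs10 was closest to Snx27 (0.88), Pdxk and Gad2, a gene of GABA synthesis, Rgs14 to Limd2 (0.91), Arpp21 and Akap5, and Rgs16 to Cbln1 (0.80), a synapse organizer, Slc41a3 and Pakap.1.

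Between members the highest values over the same 64 points were 0.68 for Rgs4 with Rgs7, 0.65 for Rgs2 with Rgs10 and 0.62 for Rgs4 with Rgs14. The lowest was -0.62, for Rgs14 with Rgs16. Rgs8 and Rgs16, the genomic neighbours, had -0.11.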

How the data were processed

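Spatial probe counts were measured in 4 mouse brain sections. Per the labels, the assay was Visium CytAssist for FFPE tissue, version 2, and per the submitters' processing notes Space Ranger and Seurat were used, with versions, probe set and genome build not given in the sources used here. The authors deposited 1 table of raw counts, genes by spots, with total counts of 174761560, 109663162, 165185177 and 90752475 in sets 1 to 4.

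Spots with at least 500 counts were scaled to 10000 counts and log-transformed, each marker gene was standardised, and a spot went to the area with the highest mean marker score if that was at least 0.5. Raw counts were then summed per area and set and given as CPM. Levels have exact Poisson intervals, shares exact Clopper-Pearson intervals and ratios exact conditional binomial intervals at 95%, all for counting error only (Python 3.11.15, numpy 2.4.6, pandas 2.3.3, scipy 1.17.1). Folds are on the scale of log2(CPM + 1), where low genes change less, except that printed ratios are of CPM. Alternatives were Leiden clusters (scanpy 1.11.5, leidenalg 0.10.2), spots clear of the next area, a minimum of 2000 counts, TMM and RLE factors (edgeR 4.0.16 in R 4.3.3), a pseudocount of 5 CPM, other gene filters, thinned counts and leaving out each set. The planned edgeR test between genotypes was not run, since spot names carry no sample.

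The members, the marker lists and the lists of partners were chosen with earlier results of these data known. Named genes are the members, up to 12 list genes called at least 2-fold in an area or pair of areas, the 3 genes most like each member (1 of which is not reported here), and markers beside a result. The calling step was run on simulated data: of 10094 genes, 200 were raised 4-fold in the striatum, of which 100% were recovered with 0 unchanged genes called. The simulated counts had Poisson error only, around each gene's mean over the section of a set. Unchanged genes therefore had no variation between areas, and the result gives no error rate for the real data.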

Additional observations from a re-analysis of the deposited data

How the results depend on the processing

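No paired analysis was possible because no sample or replicate number can be read from the spot names, and the planned edgeR test between genotypes, its replicate block, DESeq2 and leaving out each replicate were not run for the same reason. The number of members called in at least 1 area was 6 to 7 over all alternatives, and 6 to 6 with each barcode set left out. The number of pairs of member and area was 14 and ranged from 13 to 21, and from 14 to 16 with a set left out. The number of all genes called was 2144, 3602 with no filter on low genes and 3443 with a median of at least 1 CPM, as more genes were tested, and 2253 to 2330 with a set left out. Higher calls made up 49.0% of calls, 58.0% with no filter and 43.8% under TMM scaling. The count of members 2-fold apart over sets was 1, and 0 without the thalamus-marker spots, an alternative chosen after seeing the data, as was a minimum of 2 sets with 30 spots, which gave 21 pairs. No ratio of a member changed direction where it was called. Calls that were lost with the other grouping, beside those named above, were Rgs4 in layer 6b and Rgs4 and Rgs7 in the ventricle lining. Calls that appeared under 1 alternative or more included Rgs7 in layer 2/3 and Rgs10 in layer 5. With the other grouping, calls also appeared for Rgs2, Rgs7, Rgs8 and Rgs14 in white matter and for Rgs14 in the striatum. The white matter calls of Rgs7 and Rgs14 appeared as well with only the spots clear of the next area, and that of Rgs7 under TMM scaling. The causes were not tested. TMM scaling shifted the median ratio of all genes by up to -0.31 on the log2 scale, in the ventricle lining. Low counts limit Rgs14 and Rgs16 in small areas.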

Other observations

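In the hypothalamus-marker spots, the Rgs16 counts of sets 3 and 4 were concentrated in few spots. At least 10 counts were found in 4 of 142 spots in set 3 and 9 of 204 in set 4, and these held 26.6% and 45.1% of the area's Rgs16 counts, with a highest spot of 44 and 73 counts. In sets 1 and 2 the highest spots had 5 and 6 counts. In these few spots Six6, a transcription factor gene of the ventral hypothalamus, had 31.0 CPM (6 counts) against 2.94 (16 counts) in the other hypothalamus-marker spots of set 3, and 81.0 (40 counts) against 4.21 (25 counts) in set 4. Vip, a neuropeptide gene, had 20.7 CPM (4 counts) against 6.44 (35 counts) and 26.3 (13 counts) against 5.22 (31 counts). Lhx1 (3 counts in these spots in set 3 and 8 in set 4) and Avp were also higher there in both sets, while Oxt and Sim1 were lower. Oxt had 1493 against 3477 CPM in set 3 and 5579 against 9031 CPM in set 4. Sim1 had 5.17 CPM (1 count) against 36.6 (199 counts) in set 3 and 22.3 (11 counts) against 33.9 (201 counts) in set 4. The spots were picked by their Rgs16 counts and the genes beside it were chosen after their values were seen.

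In the Lbhd2- and Prkcd-led spots, Rgs8 had 12.8 CPM in set 2 and 68.4 CPM in set 3, the 2 sets with at least 30 such spots, while Rgs10 had 161.1 and 146.5 CPM. The summed level of 8 white matter markers in these spots was 2281 CPM in set 2 and 7038 CPM in set 3, that of 6 choroid plexus markers 248 and 1847 CPM, and that of the 6 markers of the Hap1-rich list 2539 and 1247 CPM. The part of these markers in the difference was not tested.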
